A study of Mus musculus with 31 samples.

Results

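The genes described are 44 protein-coding genes of mouse chromosome 15 that were chosen because they lay on that chromosome and because cultures from p53 heterozygous medulloblastomas tended to carry more of their RNA than hindbrain neural stem cells. Of the 44, 41 could be measured among 18194 genes in all. No probe set was listed for Ptk2 or Hsf1, and the probe set of Atf1 also carried the symbol of its pseudogene, so these 3 were not analysed here. The working description puts both p53 heterozygous tumours about 0.6 log2 units up. The measured median over the 41 members was 0.42 in tumour 27 and 0.43 in tumour B, and 24 members were above the stem cell mean in both tumours, so the name of the set fits most of its genes but not all of them. The p53 heterozygous values chose the members, and every difference of the members in those cultures is therefore given as a description without a test.

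All mice were C57BL/6. Neural stem cell (NSC) neurospheres, floating cultures kept in EGF and FGF2, came from the IV ventricle region, the cerebellar white matter and the subventricular zone (SVZ) of the forebrain at postnatal day 7, with 3 cultures each. Neurosphere cultures called cancer stem cells in the labels came from 8 medulloblastomas of Ptch het p53 wt mice (tumours 9, 49, 68, 74, 77, 83, 91 and 92), each with its matched tumour tissue. A further 2 cultures came from tumours 27 and B of Ptch het p53 het mice, with 3 technical replicate arrays each, averaged to 1 value per tumour. Ptch encodes the receptor that restrains Sonic hedgehog signalling, and every tumour of both genotypes came from a mouse labelled Ptch het. The state of Ptch in the tumour cells themselves was not measured. The labels give no age for the tumour-bearing mice, and each tumour line is 1 isolate. The 6 IV ventricle and cerebellar cultures together are called hindbrain NSC, and the mean of their 2 group means is the baseline of all differences below. Values are log2 intensities made by the authors with RMA, a method that corrects background, puts arrays on 1 distribution and summarises the probes of a probe set, so that 1 unit is a doubling. Levels of different probe sets are not comparable with each other, and only differences between samples are read.

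Array medians lay between 3.17 and 3.32. The p53 het arrays carried 5 date marks in their names that no other group shared, of 12 in all, so date mark and genotype cannot be told apart in any comparison of those 2 tumours. Among the p53 wt cultures, line 49 stood apart on chromosome 15 and is given separately. The p53 het cultures also differed in their cell type markers. The neural stem and radial glia markers averaged 7.15 in tumour 27 and 7.32 in tumour B, against 8.45 to 8.86 in hindbrain NSC, and 6 of 8 measured genes of that list were called lower. The neural crest and Schwann markers averaged 6.50 and 6.04 against 2.83 to 3.25, and 3 of 4 measured genes were called higher. Within that list Sox10 stood at 10.53 and 9.59 and Erbb3 at 9.73 and 8.62, while Foxd3 (2.15 and 2.48) and Ngfr (3.58 and 3.46) stayed near the dim end of the arrays. Fibroblast markers averaged 2.82 and 4.54 against 2.21 to 2.54, with Col3a1 at 8.33 and Col1a1 at 6.01 in tumour B, where the other 3 genes of the list lay inside the hindbrain range. Astrocyte markers averaged 4.92 and 3.74 against 4.63 to 6.16, and of the 4 measured genes 1 was called higher and 2 lower. Aldh1l1 was at 2.63 and 1.97 against 8.73 to 10.34, and also low in the p53 wt lines (2.21 to 3.97). Aqp4 was at 1.65 and 1.56 against 2.52 to 5.01. S100b went the other way, at 10.26 and 8.72 against 3.56 to 5.94. Gfap was at 5.13 in tumour 27 and 2.72 in tumour B, against 2.53 to 4.16. Cycling cell markers averaged 8.62 and 9.11 against 9.15 to 9.39, and of the 6 measured genes 0 were called higher and 2 lower. In tumour B the list was split. Cdk1 (9.53, against 9.03 to 9.21) and Pcna (11.18, against 10.71 to 11.06) were above the hindbrain range. Mki67, Top2a and Mcm2 were below it, and Aurkb was inside it. The part of these differences in the chromosome 15 values was not tested. In bulk RNA of this kind, fewer cells of a type and less RNA per cell cannot be told apart.

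Chromosome 15 of the mouse carries Myc, a transcription factor that drives growth and is central to many tumours, and it is syntenic with parts of several human chromosomes. Many of the members encode general machinery of the cell. Eif3e, Eif3h and Eif3l belong to eIF3, the factor that brings the small ribosomal subunit to mRNA. Xrcc6 (Ku70) binds broken DNA ends, Rad21 is a subunit of the cohesin ring and Nipbl loads it, and Derl1 (derlin-1) helps to pull misfolded proteins out of the endoplasmic reticulum for degradation. The other members act in RNA processing, transcription, mitochondria, signalling and protein traffic.

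Promoter sequences, from 250 bases before to 50 bases after the transcription start (RefSeq, GRCm38.p6), were matched for 16 members, in 19 promoters. The 5 shown are 3 genes that were higher in both p53 het tumours (Xrcc6, Eif3l and Tomm22) and 2 that were lower in both (Golph3 and Smarcd1), so that the starts of genes with opposite differences can be read side by side. All 5 are on the plus strand and are printed 5′ to 3′. Capitals mark matches, on either strand, to the GC box GGGCGG that SP1 binds, the CCAAT box CCAAT and the cyclic AMP response element TGACGTCA.
Xrcc6, chr15:82016119-82016418: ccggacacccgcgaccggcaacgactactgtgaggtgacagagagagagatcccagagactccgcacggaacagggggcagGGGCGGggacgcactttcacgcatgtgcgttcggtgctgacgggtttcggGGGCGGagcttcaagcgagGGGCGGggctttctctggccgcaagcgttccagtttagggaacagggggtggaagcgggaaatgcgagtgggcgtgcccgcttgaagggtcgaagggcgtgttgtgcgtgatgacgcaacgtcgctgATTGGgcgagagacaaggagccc
Eif3l, chr15:79074973-79075272: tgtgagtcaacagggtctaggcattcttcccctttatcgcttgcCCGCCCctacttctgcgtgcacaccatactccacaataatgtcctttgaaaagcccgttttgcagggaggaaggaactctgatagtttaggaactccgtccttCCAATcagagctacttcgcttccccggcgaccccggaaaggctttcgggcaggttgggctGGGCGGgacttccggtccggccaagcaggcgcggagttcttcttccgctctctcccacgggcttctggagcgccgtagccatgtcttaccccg
Tomm22, chr15:79670618-79670917: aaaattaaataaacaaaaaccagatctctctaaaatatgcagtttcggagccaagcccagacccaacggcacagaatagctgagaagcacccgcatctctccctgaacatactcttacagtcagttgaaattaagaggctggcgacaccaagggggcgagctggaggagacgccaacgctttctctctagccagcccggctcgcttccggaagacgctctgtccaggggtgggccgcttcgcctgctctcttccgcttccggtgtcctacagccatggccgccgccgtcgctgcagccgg
Golph3, chr15:12321246-12321545: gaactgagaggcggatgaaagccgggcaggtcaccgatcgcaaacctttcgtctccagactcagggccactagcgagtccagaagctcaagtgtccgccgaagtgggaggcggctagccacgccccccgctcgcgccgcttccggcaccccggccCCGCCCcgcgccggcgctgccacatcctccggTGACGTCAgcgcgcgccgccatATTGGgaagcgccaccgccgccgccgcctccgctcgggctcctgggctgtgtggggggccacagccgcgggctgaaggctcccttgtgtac
Smarcd1, chr15:99702037-99702336: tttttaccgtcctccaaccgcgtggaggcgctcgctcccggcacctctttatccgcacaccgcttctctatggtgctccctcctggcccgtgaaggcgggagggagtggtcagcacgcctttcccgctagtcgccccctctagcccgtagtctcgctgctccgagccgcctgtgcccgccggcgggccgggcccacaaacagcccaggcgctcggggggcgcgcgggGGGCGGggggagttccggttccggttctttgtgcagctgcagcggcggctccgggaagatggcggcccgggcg
The GC box was found in 15 of the 19 member promoters (78.9%), against 35.7% of 32851 mouse promoters of the same length. The CCAAT box was found in 10 (52.6%, against 37.4%). The full cyclic AMP response element was found in Golph3 alone (1.79% of all promoters), the E-box CACGTG in Atf1 and Cbx5 (7.15% of all) and the TATA box TATAAA in Ddx17 (13.6% of all). A GC box was present in genes that were higher and in genes that were lower in the tumours, and Tomm22, which was higher, had none of these motifs. Both strands were searched, the letters of no motif hold another motif, and a match is a description of the sequence only.

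Over the 41 members, 24 were above the hindbrain NSC mean in both p53 het tumours and 5 were below it in both. A further 6 were above in tumour 27 and below in tumour B, and another 6 the other way round. Both tumours lay above all 6 hindbrain NSC cultures for 19 members, where 19.1% of all genes did so, and below all 6 for 2 members, where 16.7% of all genes did so. In the fit across all genes 16 members were called higher and 3 lower, with 13.8% of all genes called higher and 13.0% lower. Since this contrast chose the members, nothing is read from those counts.

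**Figure D1:**
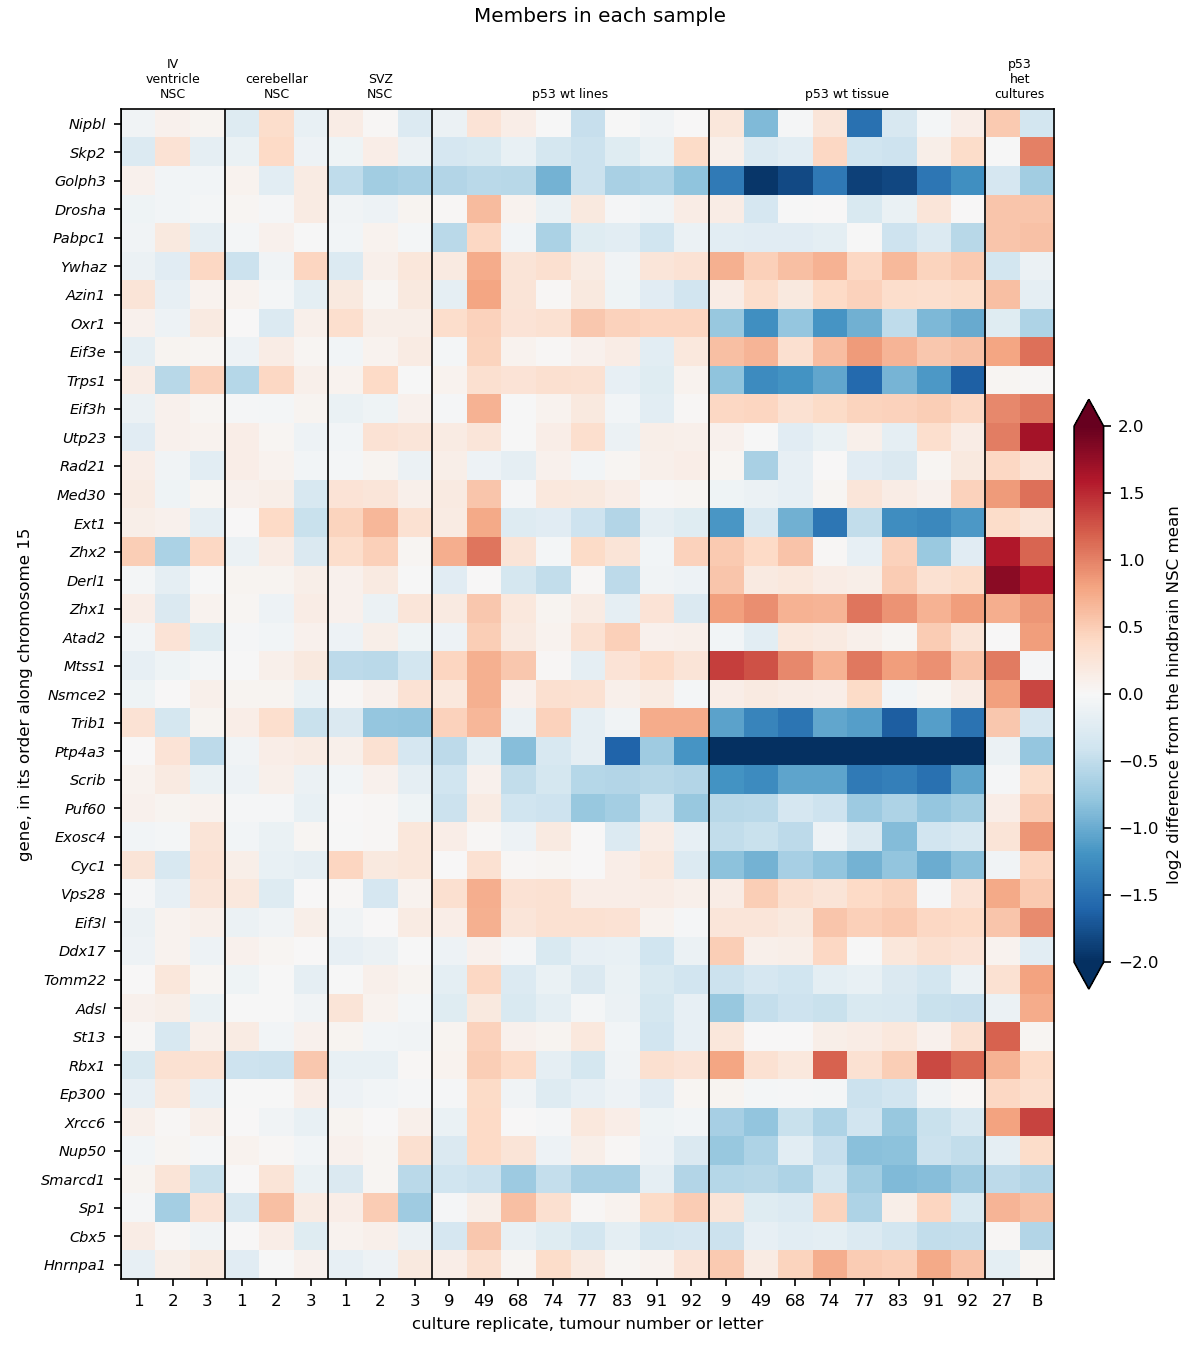
Each row is a member in its order along chromosome 15 and each column a sample; colour gives the log2 difference from the hindbrain NSC mean, with the scale ending at 2 in either direction. The 2 p53 het columns at the right and the column of p53 wt line 49 are mostly red, while the other p53 wt lines are mixed and the tissue columns are blue for Ptp4a3, Golph3 and Oxr1.

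All 4 translation genes were higher in both p53 het tumours and above every hindbrain NSC culture, where 19.1% of all genes lay above every such culture. Eif3h stood at 9.41, 9.39 and 9.49 in cerebellar NSC and at 9.32, 9.52 and 9.47 in IV ventricle NSC, and at 10.39 in tumour 27 and 10.49 in tumour B. The difference was 1.01 ± 0.16 (SE of the fit over 19 cultures), a 2.01-fold level. Eif3e was at 9.66 to 9.99 in the 6 hindbrain cultures and at 10.63 and 10.94 in the tumours (0.94 ± 0.14). Eif3l was at 9.10 to 9.34 and at 9.77 and 10.16 (0.75 ± 0.15). Pabpc1, which coats the poly(A) tail of mRNA, was at 10.53 to 10.91 and at 11.26 and 11.30 (0.57 ± 0.19). For each of these 4 genes the tumours and the hindbrain cultures did not overlap.

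The chromosome structure and repair genes gave 3 of 4 above the baseline in both tumours. Xrcc6 stood at 6.40, 6.32 and 6.24 in cerebellar NSC, at 6.50, 6.42 and 6.49 in IV ventricle NSC, and at 7.21 and 7.75 in tumours 27 and B (1.09 ± 0.14). Nsmce2, the SUMO ligase of the SMC5/6 complex, was at 6.32 to 6.56 in hindbrain NSC and at 7.28 and 7.79 in the tumours (1.08 ± 0.16). Rad21 was at 9.16 to 9.50 and at 9.78 and 9.66 (0.35 ± 0.11), a smaller gap on the log2 scale. That size depended on the probe set, since the other probe sets of Rad21 gave 0.76 and 0.98, and -0.03 and -0.01. Nipbl was split, at 8.26 in tumour 27 and 7.36 in tumour B, against 7.47 to 8.08 in the hindbrain cultures. The lower value in tumour B came from the chosen probe set alone, since the 4 other probe sets of Nipbl were above the hindbrain mean in both tumours (0.22 to 0.66 in tumour 27 and 0.26 to 0.45 in tumour B).

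Among the 6 RNA processing genes, 4 lay above all hindbrain cultures in both tumours, where 19.1% of all genes did so. Utp23, known from yeast as a factor of ribosomal RNA maturation, stood at 5.27 to 5.62 in hindbrain NSC and at 6.53 and 7.16 in tumours 27 and B, a difference of 1.35 ± 0.15. Drosha, the nuclease that starts microRNA processing, was at 8.08 to 8.34 and at 8.73 and 8.72. A second bright probe set of Drosha gave smaller differences, 0.21 in tumour 27 and 0.01 in tumour B. Exosc4, a subunit of the RNA exosome, was at 6.50 to 6.89 and at 6.89 and 7.52, clearing the hindbrain range only narrowly in tumour 27, and Puf60, a splicing factor, was at 9.06 to 9.30 and at 9.35 and 9.72. The helicase gene Ddx17 (9.97 and 9.69, against 9.80 to 9.99) and Hnrnpa1 (8.11 and 8.35, against 8.08 to 8.50) stayed close to the hindbrain range. The chosen probe sets of these last 2 genes, and those of Utp23, Drosha and Derl1, are of types that can share probes with related transcripts.

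The chromatin and transcription genes gave 7 of 9 above the baseline in both tumours. Of these 7, Trps1 was barely above it (0.04 and 0.03), as was Atad2 in tumour 27 (0.01, with 0.84 in tumour B). The other probe sets of Trps1 disagreed, with differences of -0.37 and -0.37, 0.30 and 0.20, and -1.29 and -1.01. Zhx2, a zinc finger and homeobox repressor, was at 3.67 to 4.79 in hindbrain NSC, a wide range, and at 5.91 and 5.47 in the tumours (1.38 ± 0.29). Med30, a Mediator subunit, was at 7.35 to 7.83 and at 8.52 and 8.77 (0.97 ± 0.14), and Zhx1 was at 6.43 to 6.87 and at 7.45 and 7.60 (0.80 ± 0.18). The acetyltransferase gene Ep300 (7.58 and 7.50, against 7.00 to 7.38) and Sp1 (9.05 and 8.98, against 7.70 to 8.97) were also above all hindbrain cultures, the latter by a narrow margin. A second bright probe set of Sp1 gave differences of 0.00 and 0.07. Smarcd1, a subunit of the BAF chromatin remodeller, went the other way, at 6.33 and 6.27 against 6.41 to 7.12 (difference -0.56 ± 0.18), and was below all 6 hindbrain cultures. Cbx5, the heterochromatin protein HP1 alpha, was at 9.56 in tumour 27 and 8.95 in tumour B, against 9.29 to 9.67 (-0.28 in the mean).

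Protein turnover and traffic held the largest difference of all members. Derl1 stood at 7.81, 7.80 and 7.86 in cerebellar NSC, at 7.72, 7.57 and 7.74 in IV ventricle NSC, at 9.55 in tumour 27 and at 9.35 in tumour B. The difference was 1.70 ± 0.14, a 3.25-fold level, and its technical replicate arrays had an SD of 0.16 in tumour 27 and 0.03 in tumour B. Vps28, a subunit of the ESCRT-I sorting complex, was at 9.27 and 9.03 against 8.24 to 8.74. Skp2, the F-box protein that targets the cell cycle inhibitor p27, was at 7.71 in tumour 27, inside the hindbrain range of 7.44 to 8.10, and at 8.72 in tumour B, above it. All 5 further probe sets of Skp2 were also higher in tumour B than in tumour 27, so the split did not rest on 1 probe set.

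St13, a co-chaperone of Hsp70, was at 9.51 in tumour 27 and 8.36 in tumour B, with 8.01 to 8.48 in the hindbrain cultures. The 3 technical replicates of tumour 27 spread from 8.58 to 10.07 (SD 0.81), and both other probe sets put tumour B above tumour 27 (0.39 and 0.56, and 0.44 and 0.76), so the direction of this split turned with the probe set. Golph3, a Golgi protein that binds phosphatidylinositol 4-phosphate, was lower, at 8.97 and 8.61 against 9.10 to 9.47 (-0.51 ± 0.13). Its 3 other probe sets were lower in both tumours too, by 0.33 to 0.76 on the log2 scale. Rbx1, the RING subunit of cullin ligases, had the 1 chosen probe set in the dimmer part of the arrays (3.58 in hindbrain NSC), and its values are close to those of undetected genes.

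The other roles held few genes that were higher in both tumours. Among 5 genes of mitochondria and metabolism only Tomm22, the central receptor of the outer membrane import pore, was above the baseline in both (8.60 and 9.10, against 8.12 to 8.52). Oxr1, which protects cells from oxidative damage, was lower in both (8.60 and 8.22, against 8.57 to 9.01; -0.43 ± 0.12), its value in tumour 27 lying inside the hindbrain range. Of 6 genes of signalling, adhesion and polarity only Ext1, which builds heparan sulfate, was above in both (7.25 and 7.13, against 6.42 to 7.28), and neither value left the hindbrain range. Ptp4a3, a phosphatase, was at 6.74 and 6.08 against 6.34 to 7.13 (-0.45 in the mean), and the 14-3-3 protein gene Ywhaz was at 9.42 and 9.67 against 9.36 to 10.21 (-0.24). Mtss1, a scaffold between membrane and actin, was at 9.11 in tumour 27 and at 8.06 in tumour B, against 7.91 to 8.28.

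The 2 p53 het tumours were thus not copies of each other. They differed by more than 0.5 log2 units for 15 members, and tumour B was the higher one for 20 of 41. On the chosen probe sets the largest gaps were those of St13, Mtss1, Skp2 and Nipbl, of which that of St13 turned and that of Nipbl was smaller or turned on their other probe sets. For Mtss1 the gap of 1.05 compares with technical SDs of 0.19 and 0.04. With 1 culture per tumour, such a gap is a difference between 2 tumours and has no test. The median of the members over the single arrays was 0.28 to 0.44 in tumour 27 and 0.44 to 0.52 in tumour B.

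The other probe sets of the members differed less from the baseline in tumour 27. There were 74 of them for 32 members, and 49 of these, of 23 members, were brighter than the median gene. Of the 49, 30 were above the hindbrain mean in both tumours and 9 were below it in both, and 36 had the same direction of mean difference as the chosen probe set. Their median difference was 0.21 in tumour 27 and 0.45 in tumour B. The 3 other probe sets of Derl1 gave 1.67 to 2.19. Cbx5 was a case of disagreement, since its brightest probe set gave -0.28 and 3 other bright ones gave 0.20 to 1.24.

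The other genes of the chromosome showed differences of about the same size. Of the other 683 measured genes of chromosome 15, 317 were brighter than the median gene, and their median difference was 0.52 in tumour 27 and 0.56 in tumour B. Of these 317, 250 (78.9%) were above the hindbrain mean in tumour 27 and 248 (78.2%) in tumour B, against 44.9% and 48.5% of all 9097 brighter genes. Both tumours were above all 6 hindbrain cultures for 190 of them (59.9%, against 22.5% of all brighter genes). In the fit, 164 of the 317 (51.7%) were called higher and 27 (8.52%) lower, against 17.6% and 22.4% of all brighter genes. The whole array showed no shift of that size, with a median difference of 0.03 over all genes and -0.05 over the brighter genes. Dim genes pull such medians to 0, and over all 683 genes they were 0.24 and 0.15. Because the p53 het values also picked the chromosome, these medians and shares are a description and not a test.

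**Figure D2:**
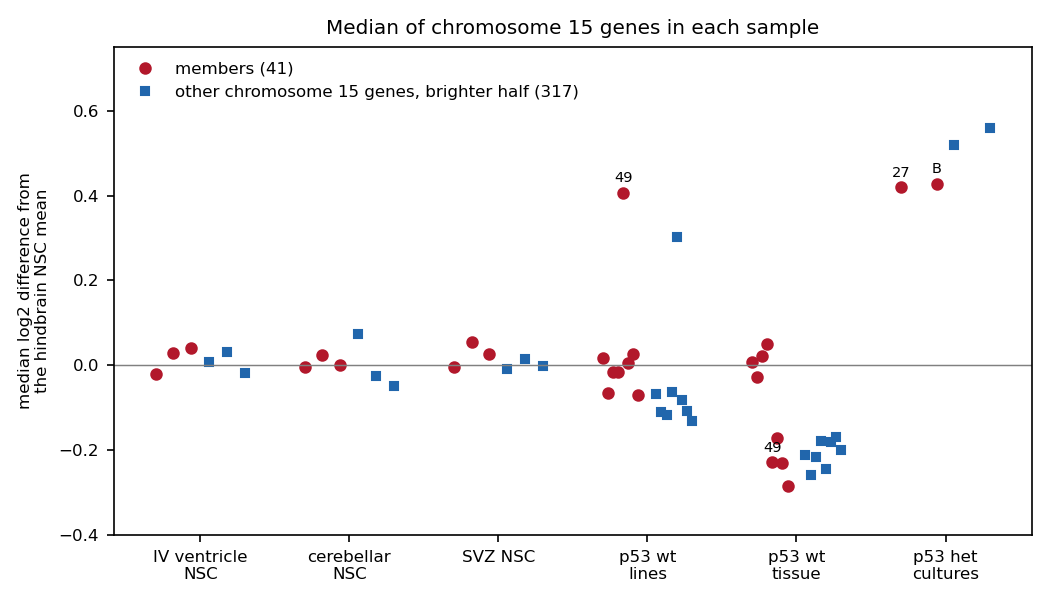
Each point is the median log2 difference from the hindbrain NSC mean in 1 sample, for the 41 members (circles) and for the other 317 brighter genes of chromosome 15 (squares). The 2 p53 het cultures and p53 wt line 49 lie above all other samples, and tissue 49 does not.

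Myc was at 8.26 in tumour 27 and 8.29 in tumour B, against 7.55 to 8.21 in hindbrain NSC. Its difference of 0.43 ± 0.18 missed the threshold (limma adjusted p = 0.0916), although both tumours were just above the highest hindbrain culture. Its neighbour Pvt1, a long non-coding RNA gene, was lower at 6.42 and 6.43 against 6.71 to 7.28 (-0.58 ± 0.21, limma adjusted p = 0.0483). Among the other brighter genes of chromosome 15, the largest differences lay far outside the range of the members. Sox10, a transcription factor of neural crest and oligodendrocyte cells, was 5.69 ± 0.38 higher, Cela1 4.68 ± 0.47, Chadl 3.92 ± 0.26, Fbxo32 3.65 ± 0.54, Cntn1 2.79 ± 0.44 and Arfgap3 2.68 ± 0.16. At the other end the astrocyte gene Mlc1 was at -5.04 ± 0.49, and Sybu (-2.75), the hedgehog ligand gene Dhh (-2.69), Wnt7b (-2.50), Selenop (-1.93) and Phf21b (-1.77) were also lower.

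Chromosome 15 was itself picked from the p53 het values, so its rank is a description and not a test. Over the brighter genes, with members left out, chromosome 15 had the highest median of 20 chromosomes in both p53 het tumours. Over all genes it was highest in tumour 27 (0.24), while in tumour B it was at 0.15, just under chromosome 5 (0.154 against 0.148). It was followed by chromosome 8 in tumour 27 (0.30) and by chromosome X (0.42) and chromosome 5 (0.40) in tumour B. Chromosome 8 was at 0.31 in tumour B as well, and chromosome 17 was at 0.17 in both. Chromosomes 12 (-0.78) and 18 (-0.75) were the lowest in tumour 27, and chromosome 12 was at -0.23 in tumour B. Higher chromosome medians were also found in p53 wt lines, on other chromosomes. Chromosome 6 was at 0.46 to 0.52 in lines 9, 91 and 92, chromosome 11 at 0.42 and 0.41 in lines 74 and 77, chromosome 17 at 0.45 in line 91 and chromosome 8 at 0.35 in line 83. The arrays measured RNA, and the number of copies of a chromosome was not measured.

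**Figure D3:**
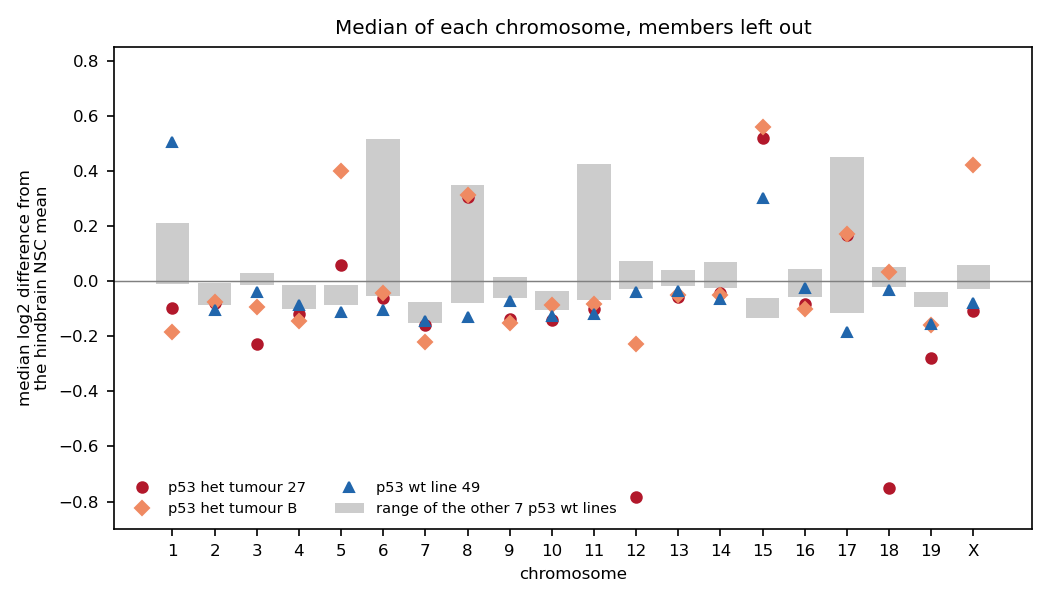
For each chromosome the median log2 difference from the hindbrain NSC mean over its brighter genes is drawn for tumours 27 and B and for p53 wt line 49, with grey bars for the range of the other 7 p53 wt lines. Over these genes chromosome 15 is highest in both p53 het tumours (0.52 and 0.56) and second to chromosome 1 in line 49.

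No interval of chromosome 15 lacked the difference. In 8 consecutive intervals of 39 or 40 brighter genes, members left out, the median was 0.21 to 0.74 in tumour 27 and 0.27 to 0.89 in tumour B. The second interval, from Cpq to Myc, held 18 members, among them Eif3h, Derl1 and Rad21, and had medians of 0.73 and 0.89. The interval from Fam118a to Pdzrn4 held no member and had the smallest medians (0.21 and 0.27). In the other 7 p53 wt lines the 8 medians lay between -0.31 and 0.16.

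**Figure D4:**
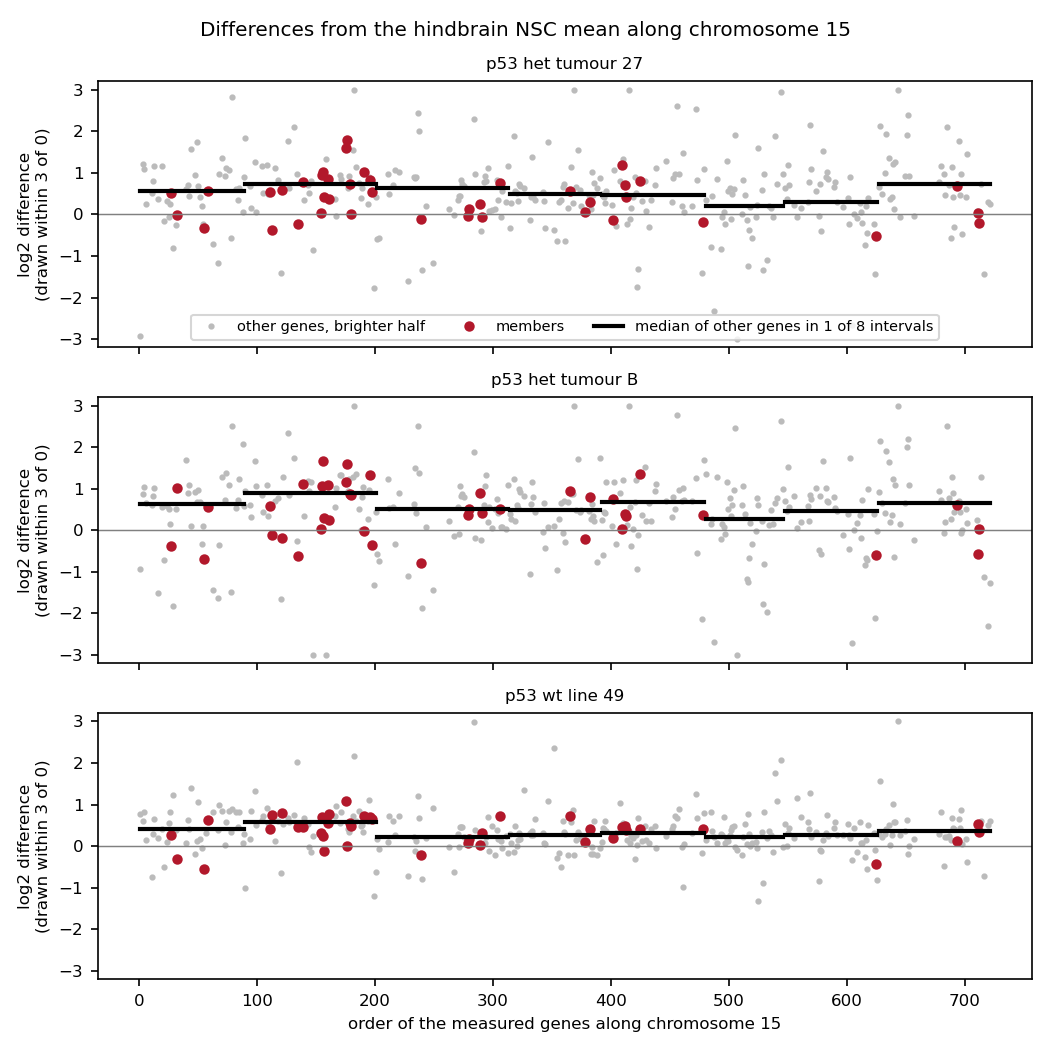
Log2 differences from the hindbrain NSC mean are plotted against the order of the 724 measured genes along chromosome 15, for tumours 27 and B and for p53 wt line 49; values beyond 3 are drawn at 3. Black bars are medians of the other brighter genes in 8 intervals, and all 24 bars lie above 0.

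Among the p53 wt lines, line 49 was the only one with a similar pattern in both sets of genes. Its median over the members was 0.41, and 36 of 41 members were above the hindbrain mean, while the other 7 lines had member medians from -0.07 to 0.03. The hindbrain mean was exceeded in line 49 by 80.4% of the other brighter chromosome 15 genes and by 42.8% of all brighter genes. Line 49 was the highest of the 8 lines for 28 members. The share of all genes for which it was highest was not computed, so nothing is read from that count. Its other chromosome 15 genes had a median of 0.30, against -0.13 to -0.06 in the other 7 lines, and only chromosome 1 (0.50) was higher in that line. All 8 intervals along the chromosome were above 0 in line 49 (0.21 to 0.58). Eif3h was at 10.13 in line 49 and at 9.22 to 9.63 in the others, and Nsmce2 was at 7.17 and at 6.42 to 6.78. Derl1 did not follow, at 7.76 in line 49 and 7.22 to 7.78 in the others. The neural crest and Schwann markers averaged 3.15 in line 49, within the range of 2.74 to 3.66 of all lines. Line 49 was the highest of the 8 lines for the neural stem and radial glia (9.33), granule neuron (4.13), fibroblast (2.56) and microglia (2.21) lists. It was the lowest for cycling cells (9.14). The fibroblast and microglia averages lay at the dim end of the arrays in all lines (2.17 to 2.56 and 1.86 to 2.21). They were close to those of hindbrain NSC (2.21 to 2.54 and 1.92 to 2.11). The part of these marker values in the chromosome 15 pattern of line 49 was not tested. The tissue of tumour 49 did not show the pattern, with a member median of -0.23 and a median of -0.24 over the other genes.

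Set against the 8 p53 wt lines, both p53 het cultures were above all 8 for 12 members, where 13.5% of all genes were. Without line 49 the count was 21 members, where 15.5% of all genes were above the other 7 lines. The fit called 19 members higher and 1 (Oxr1) lower, with 14.5% and 11.8% of all genes called, 26.3% in either direction. Leaving out line 49 gave 23 called higher, and leaving out tumour B gave 11. These counts share the p53 het values with the choice of the members and are a description. Derl1 stood at 7.22, 7.58 and 7.78 (lowest, median and highest) in the p53 wt lines, a difference of 1.92 ± 0.14 from the p53 het cultures. Oxr1 was at 9.11, 9.26 and 9.37 in the lines and at 8.60 and 8.22 in the p53 het cultures (-0.83 ± 0.12), with no overlap.

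Against hindbrain NSC, which the p53 het comparison shares as its control, the p53 wt lines had 1 member called higher and 5 lower, where 3.51% of all genes were called higher and 6.06% lower. The 1 higher gene was Oxr1 (0.41 ± 0.08). The lower ones were Ptp4a3 (-0.70 ± 0.21), Golph3 (-0.64 ± 0.09), Smarcd1 (-0.51 ± 0.12), Puf60 (-0.46 ± 0.12) and the polarity gene Scrib (-0.43 ± 0.11). Against SVZ NSC in place of hindbrain NSC, 0 members were called lower and 2 higher in the lines. Golph3 in the lines ran from 8.36 to 8.88, with a median of 8.70, and did not overlap the hindbrain cultures, and its mean of 8.66 was close to that of SVZ NSC (8.68).

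Tumour tissue differed widely from the lines grown from it, with 26.6% of all genes called higher and 23.1% lower in the lines, 49.6% in all, and 12 and 9 of the 41 members among them. Ptp4a3 was at 3.56, 3.68 and 4.13 (lowest, median and highest) in tissue and at 5.25, 6.24 and 6.67 in the lines, a paired difference of 2.44 ± 0.16. Trib1, a pseudokinase (1.61 ± 0.13), Oxr1 (1.32 ± 0.09), the GATA-type repressor gene Trps1 (1.31 ± 0.13) and Golph3 (0.98 ± 0.13) were also higher in the lines. Zhx1 (-0.71 ± 0.10), Mtss1 (-0.66 ± 0.10), Eif3e (-0.52 ± 0.08), Derl1 (-0.52 ± 0.10) and Eif3h (-0.34 ± 0.10) were lower in the lines than in tissue. Markers differed too. The granule neuron lineage markers of tissue, which hedgehog tumour cells can also express, averaged 7.87 to 8.84, against 3.69 to 4.13 in the lines, and its microglia markers averaged 6.07 to 7.40, against 1.86 to 2.21, and their part in these differences was not tested.

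The SVZ cultures were not used to choose the members, although the hindbrain cultures they are compared with were the baseline of that choice. Of 18194 genes, 311 (1.71%) were called between SVZ and hindbrain NSC, and 2 members were among them, both lower in SVZ NSC, where 0.846% of all genes were called lower. Golph3 stood at 8.80, 8.60 and 8.65 in the SVZ cultures, at 9.37, 9.10 and 9.47 in cerebellar NSC and at 9.38, 9.26 and 9.24 in IV ventricle NSC. All 3 SVZ cultures were lower than all 6 hindbrain cultures, and the difference was -0.62 ± 0.10 (limma adjusted p = 0.0152). Mtss1 stood at 7.56, 7.54 and 7.71 in SVZ NSC, at 8.07, 8.18 and 8.28 in cerebellar NSC and at 7.91, 7.99 and 8.04 in IV ventricle NSC. Its groups did not overlap either, with a difference of -0.48 ± 0.08 (limma adjusted p = 0.0227). Neither call was firm. Golph3 was no longer called when any 1 of the 3 SVZ cultures was left out or when all its probe sets were averaged, and Mtss1 was no longer called without SVZ replicate 1 or 2, without IV ventricle replicate 3, with averaged probe sets or in the fit over all 19 cultures.

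The other 39 members gave no call between SVZ and hindbrain NSC. Trib1 (-0.62 ± 0.20, limma adjusted p = 0.198) and Ext1 (0.47 ± 0.17, limma adjusted p = 0.264) had the next smallest p-values. The median over the members was 0.02 and that over all genes -0.02. The comparison of IV ventricle with cerebellar NSC had 0 calls in limma over 18194 genes. An unadjusted p under 0.05 was reached by 559 genes, and no member was among them. Member differences in that comparison ran from -0.29 to 0.20, and their median was 0.02.

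Many members act in complexes whose other subunits are encoded on other chromosomes. Of 199 listed partner genes, 184 were measured off chromosome 15. In the p53 het tumours 28 of the 184 were called higher and 53 lower than in hindbrain NSC, with 13.8% of all genes called higher and 13.0% lower. Their median difference was -0.06, beside 0.43 for the members. The members were chosen on this contrast and the partners were not, so the difference between these medians was not tested. The 2 listed partners that lie on chromosome 15 themselves, Eif3d and Eif4b, were both called higher (0.61 ± 0.12 and 0.87 ± 0.13).

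**Figure D5:**
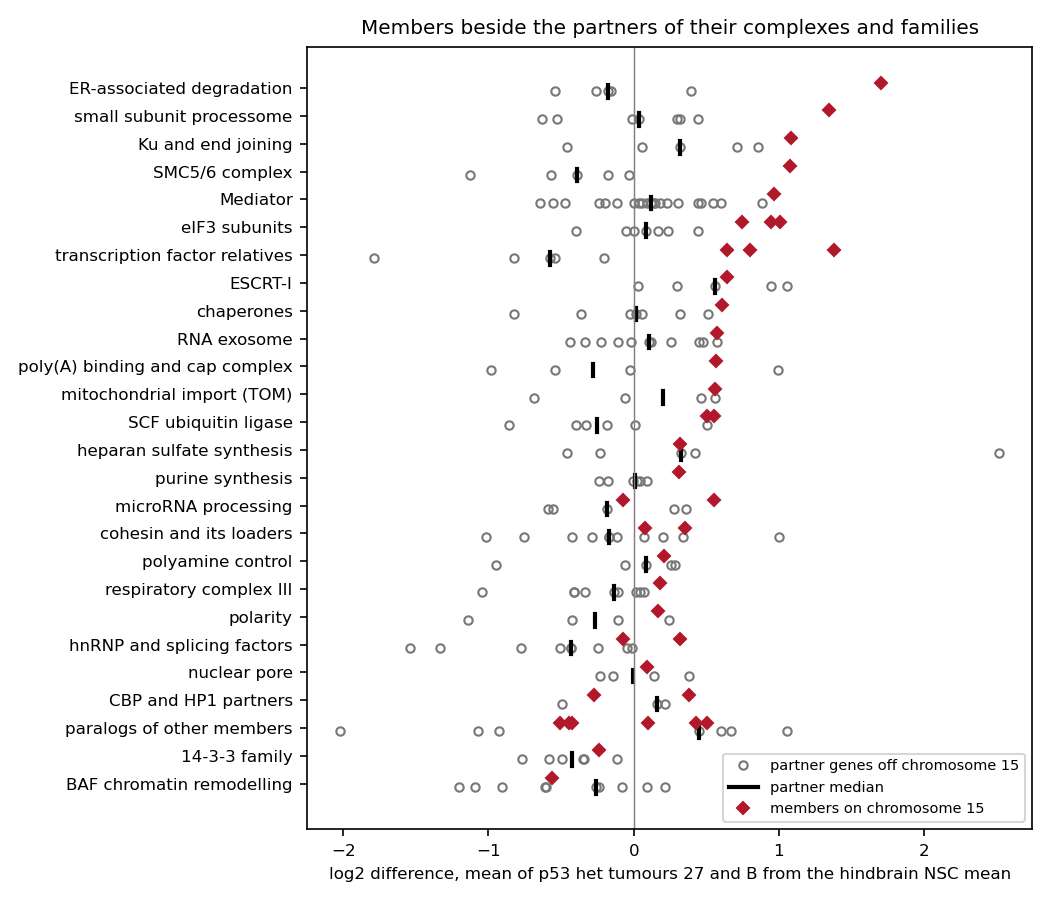
For each complex or family, diamonds give the members on chromosome 15 and open circles their partners on other chromosomes, as log2 differences between the mean of tumours 27 and B and the hindbrain NSC mean; black bars are partner medians. The 3 eIF3 members lie to the right of all 7 eIF3 partners, while Vps28 lies among its ESCRT-I partners.

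In eIF3 the 7 subunits encoded elsewhere had a median of 0.08. Eif3k was called higher (0.44 ± 0.09) and Eif3a lower (-0.40 ± 0.10), and all 7 lay below the 3 members and Eif3d. In the SMC5/6 complex Nsmce2 was at 1.08 while 3 of 5 partners were called lower, among them Smc6 (-1.13 ± 0.17) and Smc5 (-0.57 ± 0.11). In the Ku and end joining list Xrcc5, which encodes the partner of Xrcc6 in the Ku dimer, was called higher (0.86 ± 0.14), as was Lig4 (0.71 ± 0.14), while Prkdc was called lower (-0.46 ± 0.12). In ESCRT-I 3 of 5 partners were called higher with a median of 0.56, beside 0.64 for Vps28. In the endoplasmic reticulum degradation list the 5 partners of Derl1 had a median of -0.18, with 0 called higher and 1 lower.

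In other lists more partners were called lower than higher, beside 13.0% of all genes and 22.4% of the brighter genes called lower. Of 9 hnRNP and splicing genes 7 were called lower, among them Hnrnpu (-1.54 ± 0.26) and Hnrnpl (-1.33 ± 0.21), while the members of that list, Puf60 and Hnrnpa1, were at 0.32 and -0.08. Of 6 other 14-3-3 genes 4 were called lower, and Ywhaz, the member, was at -0.24. In the BAF list 5 of 11 were called lower, among them Smarcc2 (-1.20 ± 0.19), and Smarcd1, the member, was at -0.56, while its paralog Smarcd2 was called higher (1.54 ± 0.17). The other highest partners were Extl1 (2.52 ± 0.14), Bcar1 (1.44 ± 0.29), Mvb12a (1.06 ± 0.20), Trib3 (1.06 ± 0.35) and Mau2 (1.00 ± 0.27), and the other lowest were Trib2 (-2.02 ± 0.17), Zhx3 (-1.79 ± 0.22) and Llgl1 (-1.14 ± 0.19).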

How the data were processed

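Total RNA was measured on 31 Affymetrix arrays, 1 per sample. The deposited table holds 1 log2 intensity for each probe set and array, summarised by the authors with RMA, per the submitters' processing notes. No RMA version, detection call or genome build is given in the sources used here. Arrays give no counts, and their number limits the precision. Of 45101 probe sets, 34958 carried 1 gene symbol, and each gene took the one with the highest mean over all arrays (18194 genes). Technical replicates of the p53 het tumours were averaged, which left 27 samples. The labels do not say that cultures came from separate animals, so p-values measure the spread between these samples.

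The 6 comparisons were fitted in R 4.3.3 with limma 3.58.1 (moderated two-sided tests, Benjamini-Hochberg over all genes, threshold 0.05). NSC regions shared a fit of 9 arrays, tumour cultures a fit of 19 cultures, and lines and tissues were paired by tumour. The fits were tested on simulated data. Medians used genes above the median of gene means (4.46). Gene order came from a RefSeq table (GRCm38.p6), and figures from Python 3.11.15 with pandas 2.3.3, numpy 2.4.6 and matplotlib 3.10.9.

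The members, partner lists and markers were chosen with earlier results of these data known. Named members are the 10 highest and 6 lowest mean differences in the p53 het tumours, those called in a tested comparison, the 4 that differ most between tumours 27 and B, and others given as examples of a role. Named partners are the 6 highest and lowest and examples of the lists, and other chromosome 15 genes are Myc, Pvt1 and the 6 highest and lowest among those brighter than the median gene. Alternatives were brighter genes alone, averaged probe sets, array centring, other references, date marks, replicate blocks, other sets of cultures, 1 technical replicate and leaving out each culture. A few choices for the chromosome medians were added after the data were seen: centring, averaged probe sets and 1 technical replicate.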

Additional observations from a re-analysis of the deposited data

Results flagged for a closer look

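Of 86 groups of 8 values examined (each member over the lines and over the tissues, and the medians), 15 held 1 sample separated from the rest by more than Dixon's 95% critical value, where chance gives about 1 in 20 groups. The critical value takes each group alone, and members of 1 chromosome in 1 line are not independent groups. The choice of the members also looked at their values in the lines and tissue. The count of 15 is therefore a description and not a test against that rate. In 12 of the 15 the sample was p53 wt line 49. Its median over the members was 0.407 against -0.069 to 0.027 in the other 7 lines, and its median over the other brighter genes of chromosome 15 was 0.303 against -0.132 to -0.062. Among the single members, the translation factor genes Eif3h (10.125, others 9.215 to 9.627) and Eif3l (9.933, others 9.2 to 9.525) stood apart in line 49. So did Med30 (8.232), Ep300 (7.55) and Cbx5 (10.069) of chromatin and transcription, and Puf60 (9.373) and Drosha (8.796) of RNA processing. The same held for Scrib (6.897), Vps28 (9.24) and Tomm22 (8.716). In all 12 cases line 49 was the highest of the 8 lines.

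The other 3 cases lay elsewhere. Skp2 was at 8.096 in line 92, with the other lines at 7.275 to 7.57. Ptp4a3 was at 4.132 in the tissue of tumour 77, with the other tissues at 3.561 to 3.785. Adsl was at 6.134 in the tissue of tumour 9, with the other tissues at 6.413 to 6.583.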

How the results depend on the processing

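Of 440 values recomputed under an alternative, 380 were labelled the same and 60 changed. In the fits, counts were compared by their ratio and medians by the spread between cultures, without a check of direction. Direction was checked in the fits only for Golph3 and Mtss1 between SVZ and hindbrain NSC, and neither reversed. Between SVZ and hindbrain NSC (311 genes, 2 members lower), 198 genes were called among brighter genes alone, 518 with the date mark as a block and 100 in the fit over the 19 cultures, where 1 member was lower. With averaged probe sets 0 members were lower. Leaving out 1 culture gave 86 (without SVZ replicate 2), 110 (SVZ replicate 1), 175 (SVZ replicate 3) to 396 genes, 0 to 2 lower members and a member median of -0.007 to 0.038, with Golph3 at -0.676 to -0.58 and Mtss1 at -0.529 to -0.445. The replicate numbers of the NSC correlated at 0.175 to 0.341 between SVZ and the other regions but at -0.138 for 1 IV ventricle and cerebellar pair, and they were not taken as pairs; with the number as a replicate block 435 genes and the same count of 2 lower members were called between SVZ and hindbrain NSC, and 0 genes between IV ventricle and cerebellar NSC. Without the tumour pairing 8984 genes were called between lines and tissue, against 9033 with it. Between IV ventricle and cerebellar NSC 9 genes were called with the date mark as a block, 0 to 7 on leaving out 1 culture (7 without IV ventricle replicate 2), and the member median was -0.019 to 0.014.

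The median of the members in the p53 het tumours (0.428) was 0.403 among brighter genes alone, 0.378 with averaged probe sets, 0.496 against SVZ NSC and 0.365 with technical replicate 1 alone. It was 0.369 to 0.497 on leaving out 1 culture. Lower members (3) were 1 with averaged probe sets, 1 against SVZ NSC and 0 to 3 on leaving out 1 culture (0 without tumour B). Against the p53 wt lines higher members (19) were 11 to 23, 11 without tumour B, with the lone tumour assumed to vary like the other cultures. Medians of the other chromosome 15 genes were 0.456 and 0.502 with averaged probe sets, and 0.238 and 0.148 over all genes, dim ones included. For the p53 wt lines against hindbrain NSC (1740 genes, 1 member higher, 5 lower), averaged probe sets gave 2 higher and 3 lower members. IV ventricle NSC alone as reference gave 593 genes, 0 higher and 1 lower; cerebellar NSC alone 673 genes and 2 lower; SVZ NSC 1064 genes, 2 higher and 0 lower. The 4 lines of 1 date mark (49, 68, 77 and 83) gave 1003 genes and 2 lower members, and 5935 genes and 3 lower members against their tissue. Leaving out 1 culture gave 1060 (without IV ventricle replicate 2) to 1896 genes and 3 to 6 lower members, 3 without cerebellar replicate 1 or 2 or IV ventricle replicate 2. The causes of these changes were not tested. The small number of arrays per group and the dim probe set of Rbx1 limit what can be seen.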
